A study of Mus musculus with 6 samples.

Results

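The peroxisome proliferator-activated receptors (Pparg, Ppara and Ppard), the retinoid X receptors (Rxra, Rxrb and Rxrg) and the co-activator Ppargc1a were measured in the mouse cardiac outflow tract, the embryonic vessel that later divides into aorta and pulmonary trunk. The members were all probe sets, dim ones included, that the platform annotation assigns to 1 of these 7 genes and to no other. This gave 16 probe sets of 45037: 6 of PPAR genes, 5 of RXR genes and 5 of Ppargc1a. Each gene had at least 1. The members make up 7 of the 18193 genes named on the array. The study asked how gene expression is regionalised within this tube. Hearts of the outbred CD1 strain, with no mutation, transgene or treatment named in the labels, were taken at embryonic day 10.5 and cut into a superior and an inferior subdomain. RNA of each was read on whole-genome Affymetrix mouse arrays. The data comprise 3 superior and 3 inferior pools, numbered 1, 6 and 7 in both regions. The labels say that 6 littermates made up a pool, and elsewhere the submitters speak of 7 dissections per region. How these counts relate could not be settled. A pool mixes embryos, so the spread between embryos was not measured.

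PPARs are nuclear receptors that fatty acids and their derivatives activate. Each binds DNA together with an RXR, at paired copies of the element AGGTCA, and Ppargc1a is a co-activator that joins such complexes and drives genes of mitochondria. Pparg is best known as the master regulator of fat cells, and mouse embryos without it have placental and heart defects. Mouse embryos without Rxra have thin ventricular walls and outflow tract defects. Ppara and Ppard switch on fatty acid oxidation in muscle and liver.

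The deposited values are linear signals from MAS5, a method that corrects perfect-match probes with mismatch probes. How the arrays were scaled is not stated in the sources used. Signals of different probe sets are not read as relative RNA levels here. They are ranked only to pick or describe probe sets, set against control probe sets, and summed within marker lists. A signal was called above background when it exceeded 8.0, the highest signal that any of 27 probe sets for unspiked Bacillus transcripts reached on any array. The superior pool 6 array set this level, and on the other arrays these probe sets peaked at 4.2 to 7.2. Differences are superior minus inferior on the log2(signal + 3.2) scale, which understates the change of dim probe sets. They come from a limma fit over all 45037 probe sets with the pool number as a block, with Benjamini-Hochberg adjusted p and a threshold of 0.05. Between 58.4% and 63.1% of probe sets lay above background on each array. Genes listed as outflow tract muscle markers include the muscle genes Tnnt2 and Myl7 and the regulators Nkx2-5 and Isl1. All 10 of 10 were above background on all 6 arrays, against 51.9% of all probe sets. Of 10 chamber muscle markers 8 were too, so this does not tell outflow tract from other heart tissue. The superior pool 6 array stood apart in its hybridisation controls, at 1.63 times the median array. Both pool 1 arrays stood apart in the ratio of 3′ to 5′ signal of Gapdh, which was 1.30 in superior and 2.21 in inferior tissue, against 0.832 to 0.899 on the other 4 arrays.

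Pparg had the largest region difference of the members, with less signal in superior than in inferior tissue in all 3 pools. Its single probe set, 1420715_a_at, gave signals of 12.8, 2.6 and 1.6 in superior pools 1, 6 and 7, against 42.7, 19.1 and 13.8 in inferior pools 1, 6 and 7. The regions did not overlap, although the highest superior value lay just under the lowest inferior one. Superior tissue was above background in pool 1 and not in pools 6 and 7, whereas inferior tissue was above background in all 3 pools. In pool 1 the inferior signal was 3.34 times the superior signal. In pools 6 and 7 the inferior signals were 2.39 and 1.73 times the background level. Superior pools averaged 5.67 ± 6.20 and inferior pools 25.2 ± 15.4 (SD, n = 3 each).

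The log2 difference of Pparg was -1.76 ± 0.25 (SE), and by pool it was -1.52, -1.94 and -1.82 in pools 1, 6 and 7. Its unadjusted limma p of 0.000145 ranked 33rd of the 45037 probe sets. The adjusted p was 0.197, so the difference did not pass the threshold. In the fit without the pool block the standard error was 0.53 and the adjusted p was 1, the unadjusted limma p being 0.00934. The size depends on the offset for so dim a probe set: with an offset of 16 in place of 3.2 the difference was -0.90, and with an offset of 1 it was -2.22. Without pool 6, whose superior array had bright controls, it was -1.67. In bulk tissue, fewer cells of a type and less RNA per cell cannot be told apart.

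RefSeq (build GRCm38.p6) lists 3 start sites for Pparg, and the suffix of its probe set marks it as one that reads several transcripts of the gene together, so the signals above do not say which start was used. The 250 bases before each start are printed because Pparg carries the largest region difference among the members. They run 5′ to 3′ on the plus strand, and capitals mark the element AGGTCA.
Pparg, chr6:115360894-115361143: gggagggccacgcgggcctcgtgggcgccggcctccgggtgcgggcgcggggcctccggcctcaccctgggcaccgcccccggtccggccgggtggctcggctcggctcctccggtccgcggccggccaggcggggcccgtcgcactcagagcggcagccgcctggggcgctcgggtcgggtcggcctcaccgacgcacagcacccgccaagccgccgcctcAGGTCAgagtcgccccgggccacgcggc
Pparg, chr6:115362099-115362348: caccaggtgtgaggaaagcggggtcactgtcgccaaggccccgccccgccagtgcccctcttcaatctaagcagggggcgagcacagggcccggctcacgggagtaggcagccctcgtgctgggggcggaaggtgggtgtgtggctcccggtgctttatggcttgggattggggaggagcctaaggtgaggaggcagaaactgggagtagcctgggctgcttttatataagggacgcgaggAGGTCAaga
Pparg, chr6:115421816-115422065: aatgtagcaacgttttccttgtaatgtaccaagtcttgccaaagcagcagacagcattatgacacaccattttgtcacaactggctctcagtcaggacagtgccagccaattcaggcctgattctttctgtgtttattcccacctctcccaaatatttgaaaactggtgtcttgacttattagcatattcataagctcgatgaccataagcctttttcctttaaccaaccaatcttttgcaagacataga

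The first window is the richest in G and C, at 82.4%, followed by the second at 63.6% and the third at 40.8%. The element starts 28 bases before the start site in the first window and 9 bases before it in the second, and is not in the third. On both strands, it was found in 4 of the 12 windows of member genes: the 2 of Pparg, 1 of Rxra and 1 of Rxrg. Over all 32851 RefSeq promoter windows of the same length, 14.0% hold it. Its spaced pair AGGTCANAGGTCA, which contains the element and was also searched on both strands, was in 0 of the 12 member windows and in 0.0335% of all windows. These matches describe letters and not binding.

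**Figure D1:**
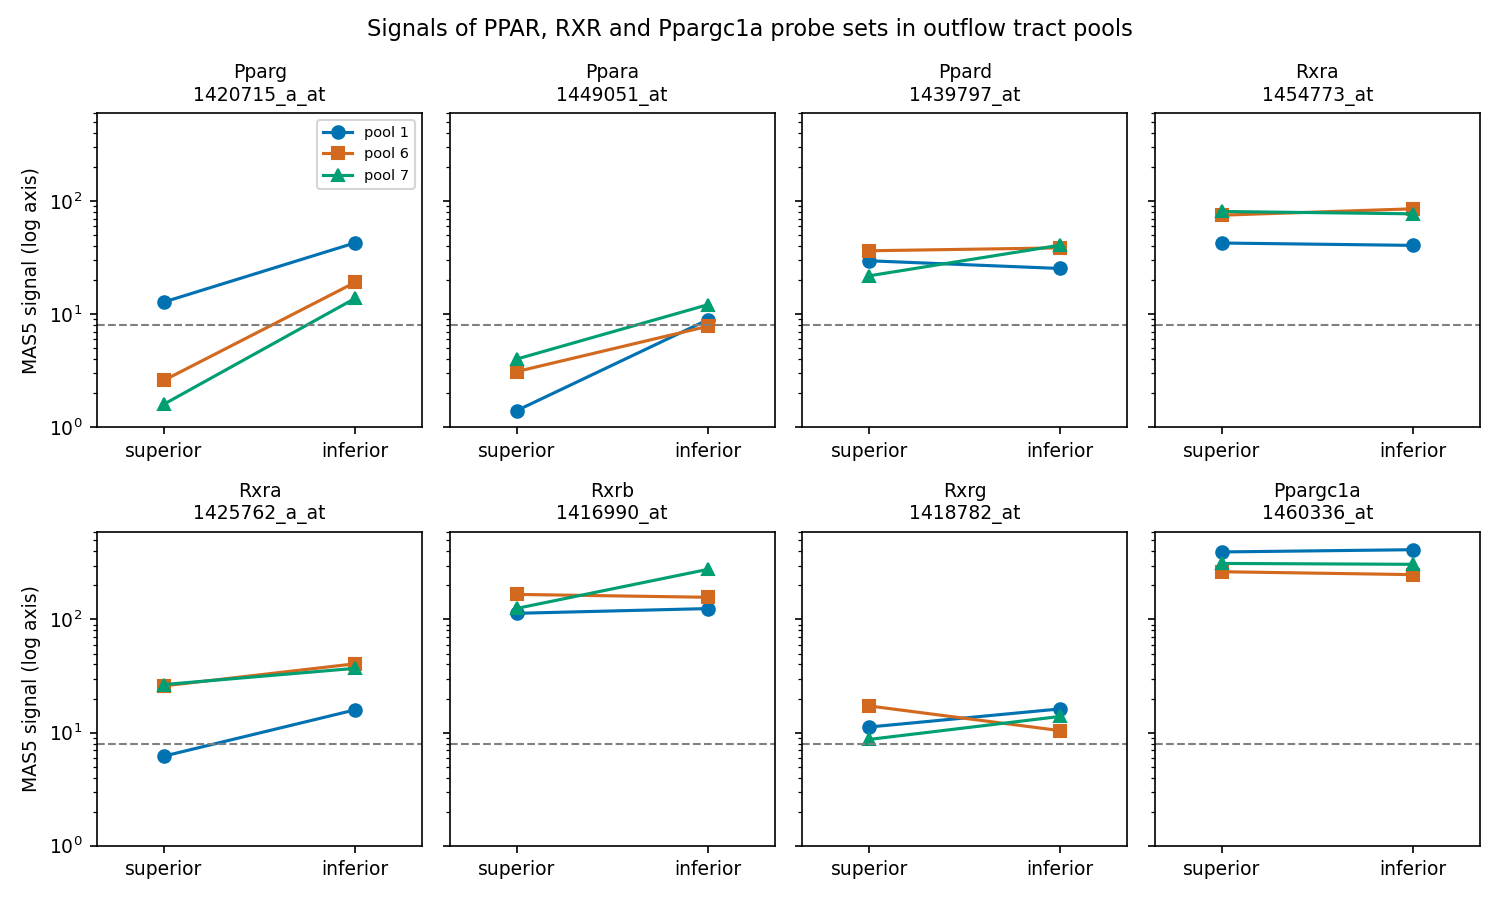
MAS5 signal on a log axis (vertical) in superior and inferior tissue for 8 member probe sets, with a line for each of pools 1, 6 and 7 and a dashed line at the background level of 8.0. Pparg lies lower in superior tissue in every pool, with 2 of 3 superior values under the background line, while the Ppargc1a and brighter Rxra lines are nearly flat. Heights of different panels are not comparable.

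Ppara, the PPAR of liver and oxidative muscle, was near or under background in both regions. Its probe set 1449051_at gave signals of 1.4, 3.1 and 4.0 in superior pools 1, 6 and 7, against 8.9, 7.8 and 12.1 in inferior pools 1, 6 and 7. No superior value was above background and 2 of the 3 inferior values were, so no fold is given. The measured means were 2.83 ± 1.32 in superior and 9.60 ± 2.23 in inferior pools (SD, n = 3 each), and the log2 difference of -1.10 ± 0.31 did not pass the threshold (adjusted p = 0.658). The groups did not overlap. Probe set 1439675_at gave 4.5, 0.7 and 1.4 in superior pools against 4.3, 4.5 and 11.6 in inferior pools, with 1 of the 6 values above background. Probe set 1457721_at, which has the highest mean signal of the 3, gave 6.6, 6.1 and 6.5 in superior pools against 7.9, 6.8 and 8.2 in inferior pools. Its groups did not overlap either, but the log2 difference was -0.17 ± 0.28 and 1 of the 6 values was above background. Against the highest Bacillus control of each array itself, only the superior pool 6 value lay under. The Ppara probe sets therefore disagree on size, from -1.10 to -0.17, at signals where the array measures little.

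Ppard, the widely expressed PPAR, was measured by 1439797_at on all 6 arrays. Its signals were 29.6, 36.3 and 21.8 in superior pools 1, 6 and 7, against 25.3, 38.5 and 40.7 in inferior pools 1, 6 and 7. The groups overlapped and the direction differed between pools, with log2 differences of 0.20, -0.08 and -0.81 in pools 1, 6 and 7. Their mean was -0.23 ± 0.22 (adjusted p = 0.856). Without pool 7 it was 0.06, and without pool 1 it was -0.45. The other Ppard probe set, 1425703_at, was under background on all 6 arrays, at 0.5 to 1.0.

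**Figure D2:**
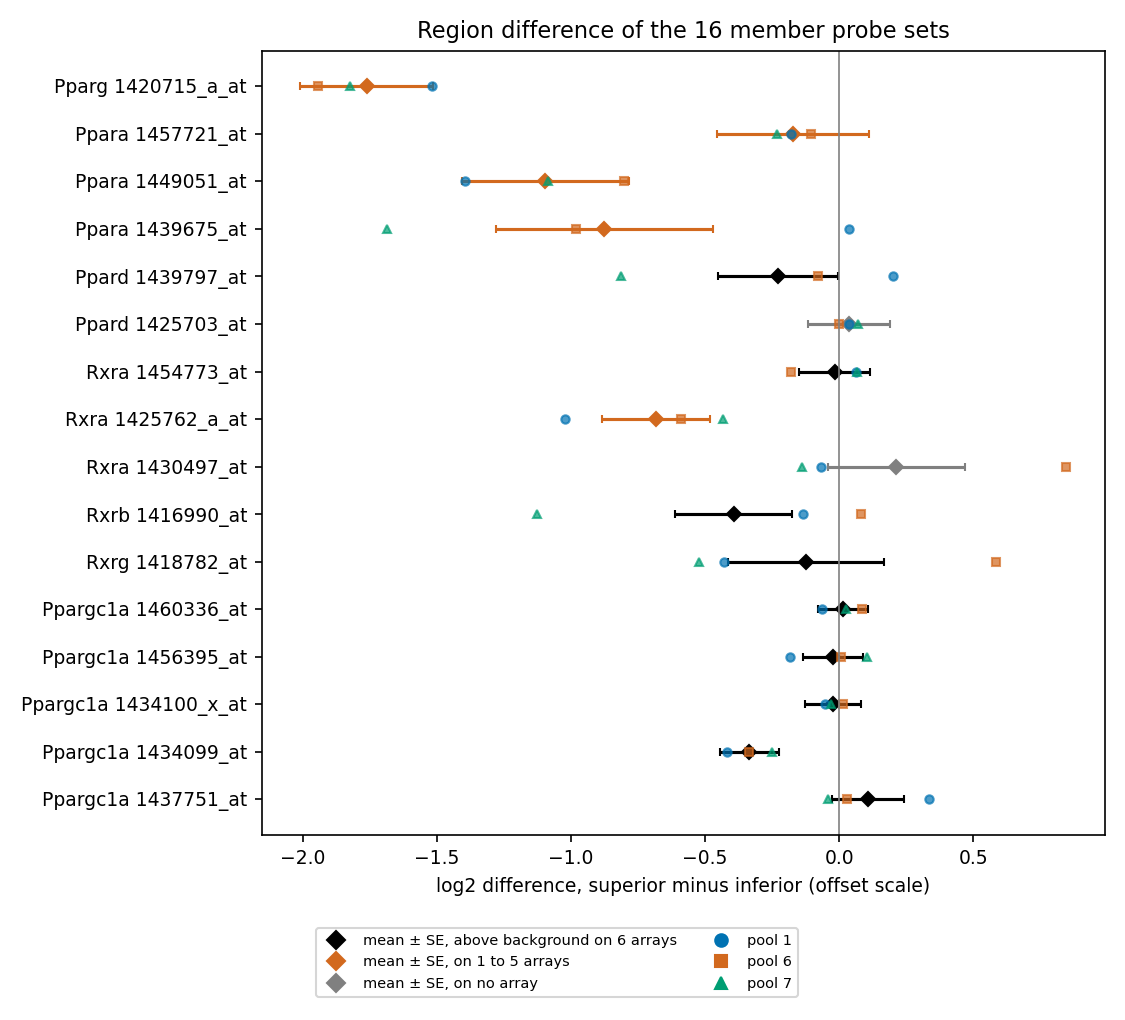
Log2 difference, superior minus inferior (horizontal), for the 16 member probe sets, with diamonds and bars for the paired mean ± SE and small symbols for pools 1, 6 and 7. Pparg stands at -1.76, and the 5 Ppargc1a probe sets lie between -0.33 and 0.11.

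Rxra, the RXR that the embryonic heart depends on, gave different answers by probe set. The brighter one, 1454773_at, had signals of 42.5, 74.9 and 80.8 in superior pools 1, 6 and 7, against 40.5, 85.3 and 77.0 in inferior pools 1, 6 and 7. The regions overlapped throughout, and the log2 difference was -0.02 ± 0.13 (adjusted p = 0.991). Its sign turned under 75th percentile scaling (0.02), quantile normalization (0.03) and cyclic loess (0.04). Probe set 1425762_a_at had signals of 6.2, 25.9 and 26.6 in superior pools 1, 6 and 7, against 15.9, 40.6 and 37.0 in inferior pools 1, 6 and 7. Superior values were below their inferior partner in every pool, while the groups as a whole overlapped because pool 1 was low in both regions. Its log2 difference was -0.68 ± 0.20 (adjusted p = 0.658), with -1.02, -0.59 and -0.43 in pools 1, 6 and 7. The third, 1430497_at, stayed under background on all arrays, at 0.8 to 4.0.

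Rxrb, a broadly expressed RXR, had signals of 113.4, 166.7 and 125.3 in superior pools 1, 6 and 7, against 124.9, 157.2 and 277.5 in inferior pools 1, 6 and 7. A high inferior value in pool 7 made most of the difference, which was -1.13 in that pool but -0.14 and 0.08 in pools 1 and 6. The mean log2 difference was -0.39 ± 0.22 (adjusted p = 0.743) and was -0.03 without pool 7, -0.63 without pool 6 and -0.52 without pool 1. Rxrg, the RXR of muscle and nervous tissue, was just above background on all 6 arrays. Its signals were 11.2, 17.2 and 8.7 in superior pools 1, 6 and 7, against 16.2, 10.4 and 13.9 in inferior pools 1, 6 and 7. Pool 6 ran opposite to the other pools, and the log2 difference was -0.12 ± 0.29 (adjusted p = 0.954). Its sign turned without pool 1 (0.03) and without pool 7 (0.08), and without pool 6 it was -0.48.

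Ppargc1a was above background on all 6 arrays with each of its 5 probe sets. The brightest, 1460336_at, had signals of 395.7, 264.5 and 313.1 in superior pools 1, 6 and 7, against 414.2, 249.3 and 307.6 in inferior pools 1, 6 and 7. The regions were close within each pool and differed more between pools. The log2 difference was 0.01 ± 0.09 (adjusted p = 0.986), and the mean over the gene's probe sets was -0.05. Probe set 1434099_at differed from the others, with signals of 136.5, 84.5 and 105.6 in superior pools against 183.4, 107.6 and 126.1 in inferior pools. All 3 pools were lower in superior tissue on that probe set, by a log2 difference of -0.33 ± 0.11 (adjusted p = 0.665). Its neighbour 1434100_x_at was designed from the same sequence record and gave -0.02 ± 0.11. The suffix of 1434100_x_at marks probes that may also match other sequences. The remaining 2 gave -0.02 ± 0.11 (1456395_at) and 0.11 ± 0.13 (1437751_at).

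None of the 16 member probe sets passed the threshold in this limma fit. Across all probe sets 0.00222% did, which was 1 probe set, of the epicardial gene Tbx18, and without the pool block 0% did. Of the 16, 9 were above background on all 6 arrays, against 51.9% of all probe sets, and 2 on none. Of the members, 12 of 16 had a negative difference, against 55.0% of all probe sets, and their median log2 difference was -0.15, against -0.03 over all probe sets. At an unadjusted limma p under 0.05 there were 4 member probe sets, all lower in superior tissue, against 7.15% of all probe sets in either direction, 3.98% in that one and 3.17% in the other: those of Pparg, Ppara 1449051_at, Rxra 1425762_a_at and Ppargc1a 1434099_at. Groups did not overlap, with superior lower, for 3 member probe sets, against 4.62% of all probe sets. These 3 belong to Pparg and Ppara, and 2 of them share a gene. No member had the opposite separation, against 3.90% of all probe sets. Differences were negative in all 3 pools for 5 of 16, against 15.9% of all probe sets, and positive in all 3 pools for 0 of 16, against 12.0%. A filter on low values, set at the median mean log2 value (a signal of about 15.1), was passed by 9 of the 16, and by no probe set of Pparg, Ppara or Rxrg. In the paired fit over the 22518 probe sets that passed, 0.160% were called, none of them a member, and 6.00% had an unadjusted limma p under 0.05 with superior lower. The lowest adjusted p of a member there was 0.321 (Rxra 1425762_a_at).

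Pools differed more than regions did for Rxra and Ppargc1a. Both pool 1 arrays lay below the other 4 for Rxra 1454773_at, above background on all 6 arrays, and for 1425762_a_at, whose superior pool 1 value of 6.2 was under background. For 1454773_at, signals were 42.5 and 40.5 in superior and inferior tissue of pool 1, and 74.9 to 85.3 on the other arrays. For Ppargc1a the order was the opposite, with both pool 1 arrays above the others on 4 of its 5 probe sets. Over all probe sets, both pool 1 arrays lay below the others for 15.2% and above them for 11.1%. Rxrb was also lowest in pool 1, though barely, with 124.9 in inferior pool 1 and 125.3 in superior pool 7. The higher 3′ to 5′ ratio of Gapdh on the pool 1 arrays moves with this pattern, and its part was not tested. Pparg was also brightest in pool 1 within each region.

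**Figure D3:**
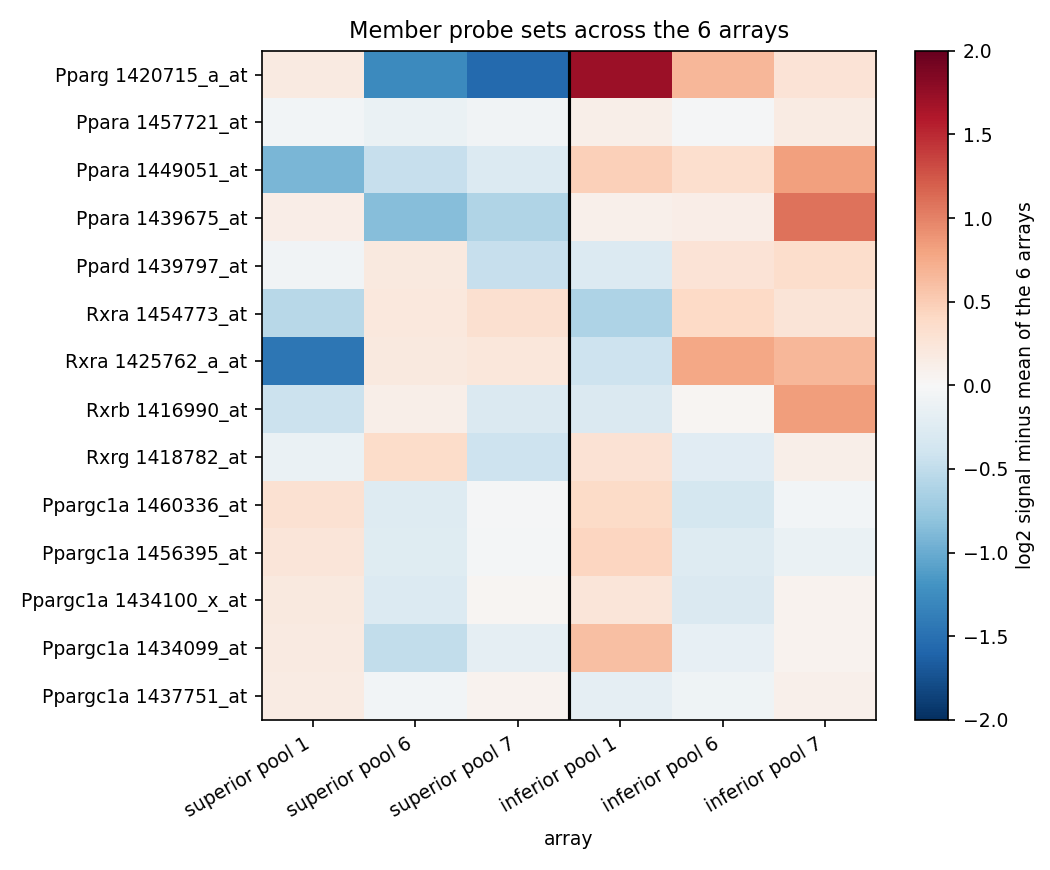
Log2 signal of each member probe set that exceeded background on at least 1 array, minus its mean over the 6 arrays (colour), with superior arrays left of the line and inferior arrays right of it. Pparg is lower in superior than in inferior tissue within each pool, although superior pool 1 (12.8) and inferior pool 7 (13.8) nearly meet. Rxra 1454773_at is low and Ppargc1a 1460336_at is high in pool 1 of both regions.

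Genes that PPARs are known to control in lipid uptake, storage and oxidation included none that passed the test. Of 40 listed, 33 had a probe set of their own here and 24 were above background on all 6 arrays. In the paired limma fit 0 passed the threshold in either direction, and 3 had an unadjusted p under 0.05, against 7.15% of all probe sets. These were Lpl and Fabp5 with positive and Cd36 with a negative difference. Differences were positive for 16 and negative for 17, with a median of -0.02. Over the brightest probe set of each gene, 51.6% were negative, with a median of -0.01. Over the 24 above background on all arrays, 15 were positive and 9 negative, with a median of 0.04. Cd36, a fatty acid importer, had the lowest value of those above background. Its signals were 67.9, 59.3 and 53.7 in superior pools 1, 6 and 7, against 119.2, 92.3 and 50.3 in inferior pools 1, 6 and 7, a log2 difference of -0.44 ± 0.19 (adjusted p = 0.698). Pool 7 was level, so the groups overlapped. Fabp4, a fatty acid carrier of fat cells and capillaries, had the highest value, with signals of 61.8, 72.8 and 25.1 in superior against 62.1, 46.0 and 18.8 in inferior pools (0.33 ± 0.17, adjusted p = 0.733). As the lowest and the highest of the 24, Cd36 and Fabp4 were bound to differ in sign here. Both had groups that overlapped.

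Lpl, which frees fatty acids from lipoproteins, had a log2 difference of 0.25 ± 0.09 (adjusted p = 0.670). Angptl4, an inhibitor of that lipase, gave -0.27 ± 0.17. Plin2, a lipid droplet coat protein, gave 0.01 ± 0.09, and Pdk4, which spares glucose, -0.09 ± 0.13. Cpt1a, which brings fatty acids into mitochondria, gave -0.24 ± 0.13, and Fabp3, the heart's fatty acid carrier, -0.02 ± 0.09. Adipoq, Cidec, Plin4, Plin5, Pck1, Aqp7, Fgf21 and Cyp4a14 were under background on all 6 arrays. Of 7 measured fat cell markers, 5 were under background throughout, Adipoq, Lep and Retn among them.

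Co-activators and co-repressors that nuclear receptors recruit were all above background, 20 of 20 measured of 22 listed. In limma 0 passed the threshold and 1 (Tle3) had an unadjusted p under 0.05, against 7.15% of all probe sets. Differences were positive for 6 and negative for 14, with a median of -0.02. Over the brightest probe set of each gene above background on all arrays, 50.9% were negative, with a median of -0.003. The co-activators Ncoa1 and Ppargc1b gave 0.05 ± 0.11 and -0.03 ± 0.11, and the co-repressor Nrip1 -0.05 ± 0.09. The highest was Sirt1, a deacetylase that acts on Ppargc1a, at 0.22 ± 0.12, and the lowest Tle3, a co-repressor with a role beside Pparg in mouse fat cells, at -0.31 ± 0.10 (adjusted p = 0.665). Ncor1 was not analysed here.

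Other receptors that pair with RXR were measured for 12 of 13 genes, 6 of them above background on all arrays. In limma 0 passed and 2 (Rarb and Nr4a2) had an unadjusted p under 0.05, against 7.15% of all probe sets. Differences were positive for 3 and negative for 9, with a median of -0.14, and among the 6 above background on all arrays 2 were positive and 4 negative. Over the brightest probe set of each gene, 51.6% were negative, with a median of -0.01. The retinoic acid receptors gave 0.18 ± 0.21 for Rara, -0.28 ± 0.11 for Rarb and -0.12 ± 0.18 for Rarg. Rarb was lower in superior tissue within each pool, with signals of 122.9, 165.2 and 89.6 in superior against 156.8, 189.9 and 111.1 in inferior pools (adjusted p = 0.683). Rara shared the pool pattern of Rxra, with signals of 8.5 and 9.5 in superior and inferior tissue of pool 1 and 28.0 to 42.1 elsewhere. The thyroid hormone receptor Thra gave 0.10 ± 0.10 and the oxysterol receptor Nr1h3 -0.29 ± 0.28. Nr4a2, an orphan receptor, was the lowest at -0.36 ± 0.15 (adjusted p = 0.696).

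Regulators that promote or restrain fat cell formation around Pparg were measured for 20 of 20 genes, 17 of them above background on all arrays. In limma 0 passed and 3 (Klf5, Stat5a and Gata3) had an unadjusted p under 0.05, against 7.15% of all probe sets. Differences were positive for 8 and negative for 12, with a median of -0.06. Over the brightest probe set of each gene, 51.6% were negative, with a median of -0.01. Gata3, a zinc finger factor that holds back Pparg in mouse fat cell precursors, was the lowest of those above background on all arrays. Its signals were 213.2, 235.0 and 235.6 in superior against 352.5, 336.7 and 353.5 in inferior pools, which did not overlap (-0.60 ± 0.10, adjusted p = 0.277). Stat5a, a cytokine-activated factor, had a lower value still, at 12.3, 7.9 and 12.4 in superior against 22.7, 19.1 and 17.5 in inferior pools (-0.72 ± 0.23, adjusted p = 0.662), with superior pool 6 under background. Its groups did not overlap either. Cebpa, which acts with Pparg in fat cells, was at 10.2, 12.7 and 10.4 in superior against 8.6, 9.9 and 0.5 in inferior pools, close to background and without overlap (0.78 ± 0.40, adjusted p = 0.726). Cebpb, which acts upstream of Pparg, gave -0.19 ± 0.11, Ebf1, another early factor, 0.01 ± 0.28, and Dlk1, a transmembrane inhibitor of fat cell formation, -0.05 ± 0.12. Ebf3, a relative of Ebf1, was the highest of those above background on all arrays, at 0.32 ± 0.22.

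Partners and mitochondrial targets of Ppargc1a were above background for 24 of 24 genes. In limma 0 passed the threshold and 2 (Ndufs1 and Ndufa9) had an unadjusted p under 0.05, against 7.15% of all probe sets. Differences were positive for 19 and negative for 5, with a median of 0.10. Over the brightest probe set of each gene above background on all arrays, 50.9% were negative, with a median of -0.003. The oestrogen-related receptors, through which Ppargc1a acts on mitochondrial genes, gave 0.10 ± 0.18 for Esrra, -0.19 ± 0.14 for Esrrg and -0.33 ± 0.19 for Esrrb, the lowest of the list. Tfam, which maintains mitochondrial DNA, gave 0.05 ± 0.09, and Cycs, cytochrome c, 0.23 ± 0.15. Ndufs1, a subunit of respiratory complex I, was the highest. Its signals were 1188, 1084 and 1049 in superior against 999.1, 978.0 and 833.8 in inferior pools (0.24 ± 0.08, adjusted p = 0.665).

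**Figure D4:**
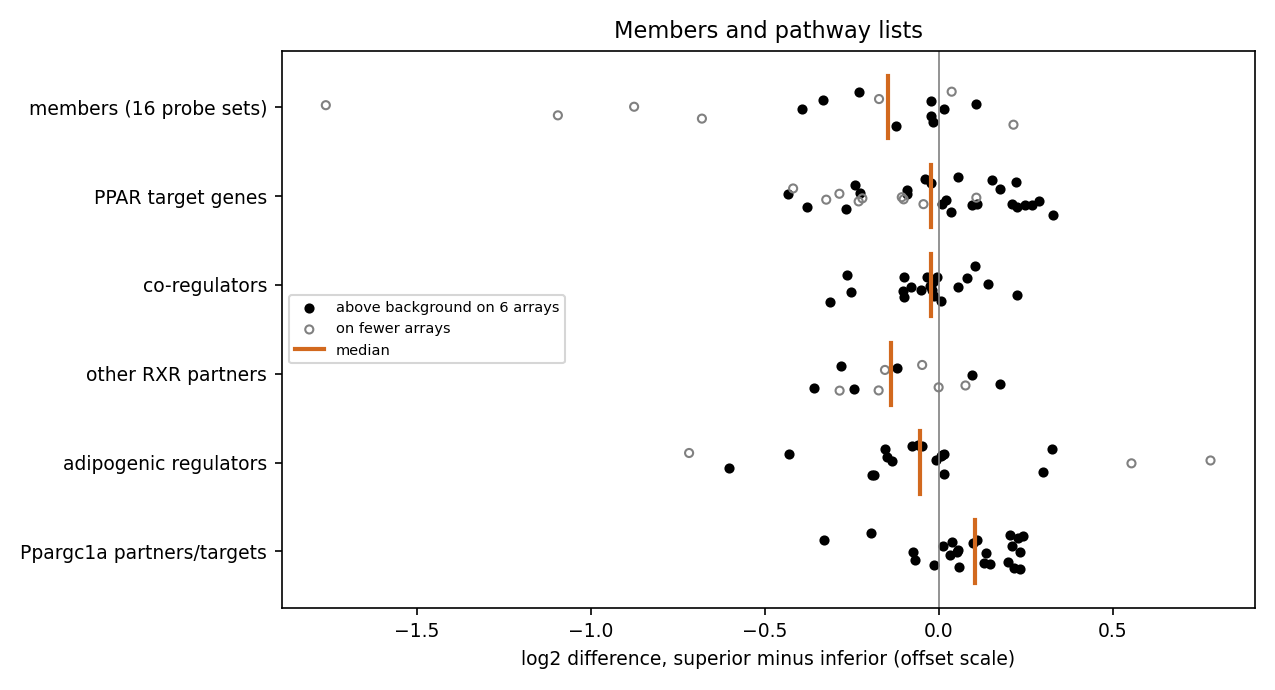
Log2 difference, superior minus inferior (horizontal), of the 16 member probe sets and of the genes of 5 pathway lists, with filled points above background on all 6 arrays, open points above it on fewer, and bars at the medians. The list medians lie between -0.14 and 0.10, and the members reach -1.76 with Pparg.

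Summed signals of several marker lists differed between the regions, although in limma 1 gene of these lists, the epicardial Tbx18, passed the threshold. The sums are led by the brightest markers and were not tested. Over all probe sets, 7.15% had an unadjusted limma p under 0.05. Over the brightest probe set of each gene, 51.6% of differences were negative. Of 10 epicardial and mesothelial markers, 10 had a positive difference, 9 of them with an unadjusted p under 0.05, and their summed signal was 1067 to 2081 in superior and 533.0 to 901.0 in inferior pools, with Msln under background. Of 10 chamber muscle markers, 7 had a positive difference, with sums of 9168 to 10498 in superior and 6415 to 8081 in inferior pools, and Gja5 under background. The ventricular light chain gene Myl2 made up 5413, 7154 and 5571 of these sums in superior pools 1, 6 and 7, against 4618, 4304 and 4025 in inferior pools 1, 6 and 7. Of the 10 outflow tract muscle markers, 7 had a positive difference, with a median of 0.21 over the 10. Their sums were 35563 to 42225 in superior and 32981 to 33609 in inferior pools. The 3 with a negative difference were Ttn (-0.06 ± 0.09) and the regulators Nkx2-5 (-0.31 ± 0.09) and Isl1 (-0.31 ± 0.08). Nkx2-5 and Isl1 were lower in superior tissue in all 3 pools (limma adjusted p = 0.658 and 0.646). Of 8 measured neural crest and nerve markers, 6 had a negative difference and 2 a positive one. Among the 6 above background on all 6 arrays, 5 were negative. The other, Sox10, was higher in superior tissue in all 3 pools (0.31 ± 0.21, limma adjusted p = 0.798). The sum over all 8 was 249.7 to 297.8 in superior and 337.9 to 411.6 in inferior pools, with Foxd3 and Tfap2b under background. Endothelial marker sums overlapped, at 1870 to 2438 in superior and 1954 to 2324 in inferior pools, with 0 of 10 under background. So did those of 9 blood cell markers, at 13954 to 22705 in superior and 12678 to 15745 in inferior pools, with Hba-a1 under background, and those of 8 hepatocyte markers, at 85.6 to 1621 in superior and 104.7 to 559.8 in inferior pools, with Alb, Fgb and Ahsg under background. The highest hepatocyte sum, 1621, was that of superior pool 6. Afp gave 828.8 on that array and 34.2 to 284 on the other arrays. Ttr gave 570.4 there and 26.5 to 196.6 on the other arrays. The source of this signal was not tested. The part of the listed cell types in the Pparg difference was not tested either.

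The genes most like each member were ranked by Pearson correlation of log2 values over the 6 arrays, among genes above background on all of them. With 6 points that share pool and array scaling, many genes correlate highly, so the coefficients only describe these arrays. For Rxra the nearest was Pi4k2b, a lipid kinase, followed by the receptor gene Tnfrsf21 and the lysosomal protease gene Ctsb, with r from 0.999 to 0.9995. Ctsb had signals of 189.4 and 182.2 in superior and inferior tissue of pool 1 and 526.6 to 648.7 elsewhere, the same low pool 1. For Ppargc1a they were Top3b (r = 0.997), a topoisomerase, Snhg10 (r = 0.997) and Crebzf (r = 0.995). For Rxrb they were Grb10, Zfp182 and Zfp292 (r = 0.994 each), and Grb10, an imprinted adaptor protein, had the same high inferior pool 7 value (72.2, against 28.1 to 43.0 on the other arrays). For Rxrg they were Pdp1 (r = 0.998), Pcdhb16 (r = 0.994) and Slc33a1 (r = 0.993). For Ppard they were Cep112 (r = 0.989), the fatty acid desaturase Fads2 (r = 0.986) and the adiponectin receptor Adipor2 (r = 0.981). Pparg and Ppara were outside this rule because some of their values were under background. For Pparg, 2 were. Pparg was ranked all the same, after its values were seen, and its nearest genes were Pcolce2 (r = 0.991), a collagen processing enhancer, Gimap8 (r = 0.987) and Ccm2 (r = 0.986). Pcolce2 had signals of 60.7, 49.8 and 48.0 in superior against 77.8, 67.8 and 59.7 in inferior pools (-0.35 ± 0.13, adjusted p = 0.673). Picked for following Pparg over these arrays, Pcolce2 was bound to differ in the same direction.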

How the data were processed

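Expression was measured in 6 pools on 6 arrays. The deposited values are linear intensity signals, 1 per probe set, from MAS5 according to the submitters' processing notes, which name no version. The arrays hold no counts, and their number limits precision. Of 45101 probe sets, 64 controls were left out. Platform annotation named 1 gene for 34945 of the rest, several for 932 and none for 9160. Signals became log2(signal + 3.2), where 3.2 is the 25th percentile. Regions were compared with limma 3.58.1 in R 4.3.3 (lmFit, eBayes with trend and robust variance). The pool number was a block, which leaves 2 residual degrees of freedom, and the code was tested on simulated data. Changes were planted there only in brighter probe sets, so that test does not cover ones as dim as Pparg. Arrays of the same pool number shared their deviations from the region means over the brighter 22518 probe sets (r = 0.79 for pool 1, 0.43 for pool 6 and 0.51 for pool 7, all above the limit of 0.1). Superior 6 with inferior 7 (r = 0.18) and superior 7 with inferior 6 (r = 0.20) also passed it. Nothing says that pools came from separate litters, so p-values measure the spread between these pools. The members and lists were chosen with earlier results of these data known. A gene of a list is represented by its probe set of highest mean signal. Named genes were all members, list genes picked for their role, any list gene past the threshold, the highest and lowest of each pathway list among those above background, and the 3 genes most like each member above background. Alternatives covered the block, filters, offset, variance, scaling, gene means and left-out pools or arrays.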

Additional observations from a re-analysis of the deposited data

Results flagged for a closer look

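A probe set outside the members, annotated to both Ppard and 1810013A23Rik, was above background on all 6 arrays, with signals of 8.6, 13.7 and 13.8 in superior pools 1, 6 and 7, against 13.9, 11.4 and 13.7 in inferior pools 1, 6 and 7. Its log2 difference was -0.11 ± 0.25 (limma paired fit, adjusted p = 0.956), and the highest signal of 13.9 cannot be assigned to either gene.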

How the results depend on the processing

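No member gene passed the threshold under any alternative that was run. Each gene was represented there by its probe set of highest mean signal, or by the mean over its probe sets. The other probe sets of Ppara, Ppard, Rxra and Ppargc1a were not read on their own under the offset, variance, scaling or left-out settings. No member was called with the replicate block, and none was called without it. The number of probe sets called among all, 1 with the pool block, was 0 without the replicate block (limma, with 1644 at an unadjusted p under 0.05 then) and 0 with plain eBayes. It was 36 with the filter above the median, 2 with the top 25% of mean log2 values, 3 with an offset of 1, 2 with an offset of 16 and 3 with cyclic loess. With 1 pool left out it ranged from 0 to 5, and with 1 array left out of the fit without the replicate block it was 0 each time. Pparg, Ppara and Rxrb kept their sign under every alternative that gave them a value. Pparg ranged from -2.30 to -0.90 with adjusted p from 0.157 to 1, Ppara from -0.71 to -0.08 and Rxrb from -0.64 to -0.03. Rxra, at -0.02, turned to 0.021 under 75th percentile scaling, 0.031 under quantile normalization and 0.037 under cyclic loess. With 1 pool left out, Rxra ranged from -0.058 to 0.066, Ppard from -0.445 to 0.062, Rxrg from -0.477 to 0.078 and Ppargc1a from -0.020 to 0.055. In the fit without the replicate block and with 1 array left out, Rxra ranged from -0.33 to 0.26, reaching 0.26 without superior 1, 0.18 without inferior 6 and 0.11 without inferior 7. Ppargc1a was -0.14 without superior 1, -0.16 without inferior 6 and -0.0062 without inferior 7 there, its highest being 0.21, and Rxrg was 0.053 without superior 7. As a mean over its probe sets Ppargc1a was -0.052. The cause of these turns was not tested. Filters gave no value for Pparg, Ppara and Rxrg, and the stricter one gave values only for Rxrb and Ppargc1a, since the other representative probe sets were too dim. Signals near or under background limit what can be said of Pparg and Ppara. With an arm of 2 arrays the spread is taken from all arrays of the fit.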

Other observations

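Lncppara, a long non-coding RNA gene named after Ppara, had signals of 11.4, 15.9 and 1.3 in superior pools 1, 6 and 7, against 1.1, 2.8 and 6.1 in inferior pools 1, 6 and 7. Superior tissue was above background in 2 pools and inferior tissue in 0. The log2 difference was 0.80 ± 0.57 (limma paired fit, adjusted p = 0.802), and pool 7 ran the other way.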
